A study of Arabidopsis thaliana with 6 samples.

Results

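Photosystem I and photosystem II, the membrane complexes that turn light into electron flow in the chloroplast, each hold several subunits of very low mass, most of them a single membrane-spanning helix. The genes of 10 such subunits that the plastid genome carries are described here, psaI and psaJ of photosystem I and psbH, psbI, psbJ, psbK, psbL, psbM, psbT and psbZ of photosystem II. They were chosen by name, as the probe sets whose only annotated gene is one of these 10 on the plastid chromosome. Each of the 10 had 1 probe set with a value on every array, among 69 plastid genes and 11392 genes measured under a name in all.

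The plant was Brassica oleracea var. alboglabra, line A12dH, and its shoot RNA was hybridised to ATH1 arrays, which carry probes made for the related species Arabidopsis thaliana. Phosphate-starved shoots (P-starved) gave 3 arrays and nutrient-replete shoots (replete) gave 3, numbered 1 to 3 in each group. Plants of both groups were labelled as grown in compost under 16 h days at 22°C and 70 to 80% humidity and watered daily with deionised water, after 3 to 5 days of stratification at 4°C. The organism field of the records names Arabidopsis thaliana, while their characteristics name the Brassica. The means and length of phosphate starvation are not stated in the labels, nor is whether replicates came from separate plants, so a p-value here reflects the spread between these arrays, which may be technical. A gene name below is that of the Arabidopsis gene behind the probes, whose match to the Brassica transcript was not measured.

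The arrays fell into 2 processing sets. The replicate 1 arrays of both groups list 22810 probe sets and the other 4 arrays list 19642, and log2 signals correlated across probe sets with r of 0.903 to 0.927 within a set and 0.608 to 0.633 between sets. Each set holds both groups, so every difference is given within each of them. Of the green tissue markers 2 of 16 were measured by name, and the antenna protein gene LHCB4.2 had 4468 to 8439 in P-starved and 4245 to 8643 in replete shoots, with log2 differences of -0.034 on replicate 1 and -0.0072 on the others. The second, LHCB4.1, had 1217 to 2745 in P-starved and 919 to 2496 in replete shoots, with differences of 0.14 and 0.24. Of the root markers 4 of 10 were measured, with signals of 1.60 to 136 in P-starved and 1.60 to 105 in replete shoots.

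As background, the chlorophyll-binding core proteins of both photosystems carry the pigments and electron carriers, while the low-mass subunits surround them and help to hold antennae, neighbouring subunits and the photosystem II dimer together. In the plastid genome many of these short genes lie in shared transcription units with core genes, and the long first transcripts are cut into smaller ones. The plastid also holds the genes of short subunits of the cytochrome b6f complex, which passes electrons from photosystem II to photosystem I.

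On the replicate 1 arrays the signal of all 10 genes was lower in P-starved than in replete shoots, with log2 differences from -1.67 for psbH to -0.033 for psaJ and a median of -0.37. On the replicate 2 and 3 arrays 8 of the 10 were higher, against 53.9% of all probe sets and 45.8% of the other plastid ones, and the differences ran from -0.15 for psbH to 1.50 for psbM, with a median of 0.35. No gene passed the test in either direction over all arrays. These were bulk shoots, in which fewer green cells and less plastid RNA per cell cannot be told apart. A log2 difference is P-starved minus replete on the scale of log2(signal + 16), after each array was scaled to a 2% trimmed mean of 100. It was tested with limma with the processing set as a block and Benjamini-Hochberg adjustment over 19578 probe sets at 0.05. Every SE, printed after ± or drawn as an error bar, is that of the limma fit. There the spread of a gene is drawn toward that of probe sets of similar level, so it is not the gene's own spread alone. Among all probe sets tested limma called 0 (0%), with a smallest adjusted p of 0.788, and 530 were higher and 627 lower at an unadjusted p under 0.05, together 5.91%, with none of the 10 genes among them.

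These directions have to be read against the background. On the replicate 1 arrays 48% of all probe sets and 96.6% of the 59 other plastid probe sets were lower in P-starved shoots, so that the 10 of 10 is close to what the rest of the plastid genome gave. On the replicate 2 and 3 arrays both P-starved arrays lay above both replete arrays for 6 of the 10 genes, against 23.2% of all probe sets and 23.7% of the other plastid ones. Both lay below for 1 of the 10, against 16.1% and 28.8%. As all 10 genes were lower on replicate 1, the 6 that were above had to combine both directions. The combination was found in 10.7% of all probe sets and 23.7% of the other plastid ones. With quantile normalization 7 of the 10 were lower on the replicate 1 arrays, the other 3 being psaJ, psbM and psbZ, and their median there was -0.099 in place of -0.37. On replicates 2 and 3 the same normalization gave 9 higher, with a median of 0.45, against a median of 0.013 over all probe sets. It gave 8 above and 0 below without overlap in place of 6 and 1. The shares of all and of the other plastid probe sets were not counted under this normalization. These changes in the counts of the 10 genes therefore have no background beside them.

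**Figure D1:**
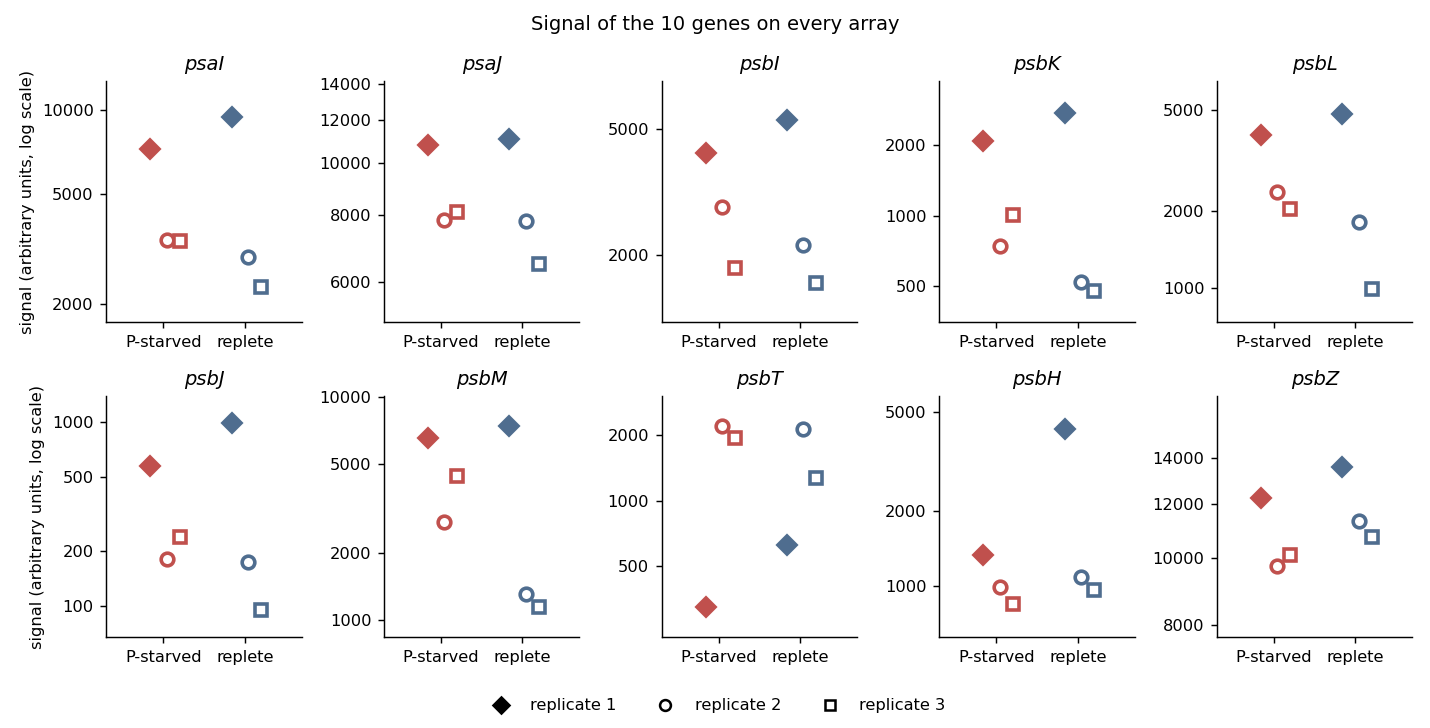
Signal of the 10 genes on every array, in arbitrary units on a log scale that differs between panels, with P-starved arrays left and replete arrays right; filled diamonds are replicate 1, open circles replicate 2 and open squares replicate 3. The replicate 1 arrays stand apart from the others for every gene, and psbM separates the groups most on replicates 2 and 3, at 2749 and 4408 in P-starved against 1298 and 1144 in replete shoots.

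The photosystem I genes are psaI, whose product helps to hold the subunit next to the docking site of mobile antennae, and psaJ, whose product lies beside the subunit that binds plastocyanin. psaI (probe set 245017_at) had a signal of 7232 on P-starved replicate 1 and 3396 and 3382 on P-starved replicates 2 and 3, against 9455 on replete replicate 1 and 2957 and 2314 on replete replicates 2 and 3. The replicate 1 arrays were high in both groups, the P-starved one was the lower of them, and on replicates 2 and 3 the groups did not overlap. The log2 difference was -0.39 on replicate 1 and 0.37 ± 0.18 (SE, 2 arrays a group) on replicates 2 and 3, and 0.12 ± 0.21 over all arrays (limma, adjusted p 0.892).

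psaJ (244967_at) varied least between the groups on replicate 1. Its signal was 10786, 7816 and 8111 on P-starved replicates 1, 2 and 3, against 11037, 7801 and 6482 on the replete ones. On replicates 2 and 3 the P-starved arrays were above the replete ones by a margin of only 7816 against 7801, and the log2 difference over all arrays was 0.10 ± 0.14 (limma, adjusted p 0.872).

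In photosystem II, psbL, psbM and psbT encode subunits at the interface of the 2 monomers of the dimer. psbM (245001_at) had signals of 6569, 2749 and 4408 in P-starved shoots, replicates 1 to 3, against 7403, 1298 and 1144 in replete shoots. On replicate 1 the P-starved array was slightly lower, with a log2 difference of -0.17, while on replicates 2 and 3 its mean signal was 2.93 times that of replete shoots. That was a log2 difference of 1.50 ± 0.27 (SE), with an adjusted p of 0.523 in the limma fit of those arrays alone. Over all arrays it was 0.94 ± 0.39 (limma, unadjusted p 0.055, adjusted p 0.788), and no other gene of the 10 had a larger difference.

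psbL (245022_at) had 3982, 2390 and 2045 in P-starved shoots against 4810, 1806 and 988 in replete shoots. It was lower on replicate 1, by a log2 difference of -0.27, and higher without overlap on the others, at 0.72 ± 0.33. psbT (244973_at) stood apart from the other 9 genes in that its signal was lowest on the replicate 1 arrays. It had 327 on P-starved replicate 1 and 2184 and 1934 on P-starved replicates 2 and 3, against 630 on replete replicate 1 and 2123 and 1270 on replete replicates 2 and 3. The psbT difference was -0.91 on replicate 1 and 0.32 ± 0.29 on the others, where the groups overlapped. Both replicate 1 arrays lay below all other arrays for 4058 of the 19578 probe sets and for 0 of the 59 other plastid ones. For the other 9 genes both replicate 1 arrays lay above all other arrays, which held for 39.5% of all probe sets and 37 of the 59 other plastid ones. Each array was scaled over the probe sets it lists, which differ between the sets, so such levels across them are not tested.

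psbJ, whose product lies by cytochrome b559, and psbK and psbI, whose products lie by the core antenna and the reaction centre, were also lower on replicate 1. psbJ (245021_at) had signals of 577, 180 and 237 in P-starved shoots against 984, 174 and 95.7 in replete shoots. Its log2 difference was -0.75 on replicate 1 and 0.62 ± 0.34 on the others, where P-starved replicate 2 was above replete replicate 2 by 180 against 174. psbK (245050_at) had 2095, 745 and 1007 in P-starved shoots against 2760, 524 and 479 in replete shoots. Its mean signal on replicates 2 and 3 was 1.75 times that of replete shoots, with no overlap and a log2 difference of 0.77 ± 0.20 (limma on those arrays, adjusted p 0.554), and on replicate 1 the difference was -0.40. psbI (245023_at) had 4202, 2848 and 1824 in P-starved shoots against 5345, 2161 and 1629 in replete shoots. Its log2 difference was -0.35 on replicate 1 and 0.28 ± 0.29 on the others, where the groups overlapped.

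With each array scaled to the trimmed mean, psbH and psbZ did not share the higher values on replicates 2 and 3. psbH (244975_at), which encodes a phosphorylated subunit next to the inner antenna, had 1328, 995 and 844 in P-starved shoots against 4269, 1087 and 961 in replete shoots. Replete replicate 1 was far above every other array, and the P-starved array was at 0.311 of it, a log2 difference of -1.67. On the others the groups overlapped, at -0.15 ± 0.16, so the -0.66 ± 0.33 over all arrays (limma, adjusted p 0.788) rests mostly on replicate 1. psbZ (245004_at), whose product links the core to the outer antenna, had 12225, 9748 and 10103 in P-starved shoots against 13566, 11331 and 10738 in replete shoots. It was lower in both sets without overlap, by -0.15 on replicate 1 and -0.15 ± 0.21 on the others, as were 8.59% of all probe sets and 27.1% of the other plastid ones. With quantile normalization the psbZ difference over all arrays was 0.11 in place of -0.15. It was then 0.067 on replicate 1 and 0.14 on the others, where P-starved lay above replete without overlap.

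**Figure D2:**
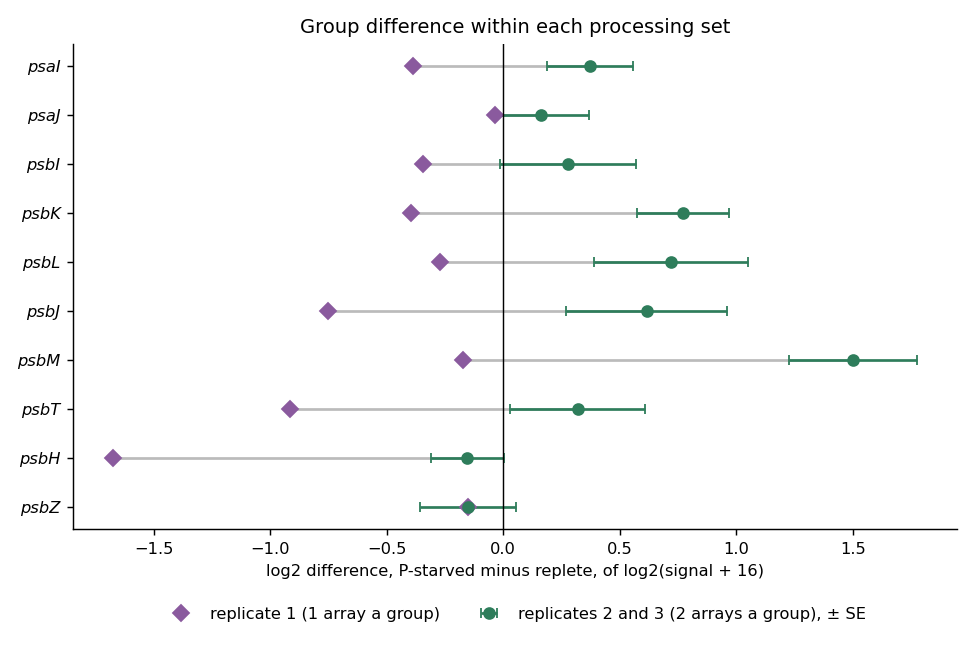
Log2 difference, P-starved minus replete, of each gene on the replicate 1 arrays (diamonds, 1 array a group, no error) and on the replicate 2 and 3 arrays (circles with SE, 2 arrays a group). The diamonds lie between -1.67 and -0.033, and 8 of the 10 circles lie above 0, up to 1.50 for psbM.

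Whether the group difference differed between the processing sets was tested with an interaction term in limma over all probe sets. The difference on replicates 2 and 3 was above that on replicate 1 by 1.67 ± 0.48 (SE) for psbM, 1.52 ± 0.26 for psbH and 1.17 ± 0.34 for psbK. The unadjusted p of these 3 genes was 0.028, 0.0054 and 0.030, and their adjusted p was 0.415, 0.237 and 0.421. The other 7 ran from -0.0023 for psbZ to 1.37 for psbJ, with unadjusted p from 0.061 to 0.991. No probe set passed this test after adjustment (0%). At an unadjusted p under 0.05 there were 3 of the 10 genes, 9.94% of all probe sets and 44.1% of the other plastid ones. Which genes these are depends on the processing. With quantile normalization they were 2, psbH at 0.0055 and psbT at 0.032, while psbM was at 0.051 and psbK at 0.059. All probe sets then gave 978 higher and 851 lower of 19578. Among the brighter 50% of probe sets 4 of the 10 were under 0.05, beside 269 higher and 217 lower of 9789.

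Other array measures are given beside these directions. The array control for 25S ribosomal RNA had a signal of 881 on P-starved replicate 1 and 175 and 335 on P-starved replicates 2 and 3, against 3767 on replete replicate 1 and 111 and 101 on replete replicates 2 and 3. The median signal of all 69 plastid probe sets, the 10 genes included, was 1654, 934 and 979 on P-starved replicates 1, 2 and 3. On the replete ones it was 3828, 993 and 780, so that the groups overlapped on replicates 2 and 3. The part of either in the differences of the 10 genes was not tested.

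To see how the 10 genes stood within the plastid genome of an array, the median log2 signal of the 59 other plastid probe sets was subtracted from each. This median was lower by 1.42 on P-starved than on replete replicate 1, and higher by 0.25 in P-starved shoots on replicates 2 and 3. The median of the 59 differences themselves was -0.79 on replicate 1 and -0.021 on the others, so the shift depends on how it is taken. Relative to the median signal, 9 of the 10 genes were higher in P-starved shoots on replicate 1, with a median difference of 1.06, the exception being psbH at -0.25, and so were 45 of the 59 other plastid genes. Against the median of the differences 8 of the 10 were higher on replicate 1, and 29 of the 59. On replicates 2 and 3 psbM was at 1.26 relative to the median signal, psbK at 0.53, psbL at 0.47 and psbJ at 0.37, while psbH was at -0.40, psbZ at -0.40 and psaJ at -0.083. On those arrays 7 of the 10 were above the shift of the median signal, against 16 of 59, and 8 were above the median of the differences, against 29 of 59. No test was made of this description.

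The other plastid genes of the photosynthetic complexes did not all follow the same course. All 3 short cytochrome b6f genes lay above replete shoots without overlap on replicates 2 and 3, and were lower on replicate 1. petN had signals of 1654, 1972 and 1635 in P-starved shoots against 2151, 638 and 513 in the replete ones. Its log2 difference was -0.38 on replicate 1 and 1.62 ± 0.18 on the others. petG had -0.19 and 2.40 ± 0.68, and the third, petL, had a difference of 1.02 on replicates 2 and 3. The longer cytochrome b6f genes petA, petB and petD were all lower on replicate 1, with a median of -1.21, and lay between -0.071 and 0.095 on the others.

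The 9 core genes of the photosystems were all lower on replicate 1, with a median of -0.79. On replicates 2 and 3 their median was -0.058, with 2 genes above replete shoots without overlap, 3 below and 4 overlapping. Their smallest unadjusted p over all arrays were those of psbB, of an inner antenna protein, at -0.61 ± 0.24, and psaA, of the photosystem I reaction centre, at -0.69 ± 0.33. The photosystem assembly genes ycf4 and psbN had -0.52 ± 0.20 and 0.29 ± 0.23, and of the 3 genes of that list 1 was higher and 2 were lower.

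The 6 plastid ATP synthase genes had a median of -0.56 on replicate 1 and -0.23 on the others, with atpI at -0.90 ± 0.14 and atpE at -0.36 ± 0.13 over all arrays. The 10 measured genes of the NADH dehydrogenase-like complex had medians of -0.46 and -0.083, with ndhH at -1.21 ± 0.30 and ndhK at -0.65 ± 0.19. For comparison, the median over all probe sets was 0.016 on replicate 1 and 0.022 on replicates 2 and 3. None of these lists held a gene called by limma.

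**Figure D3:**
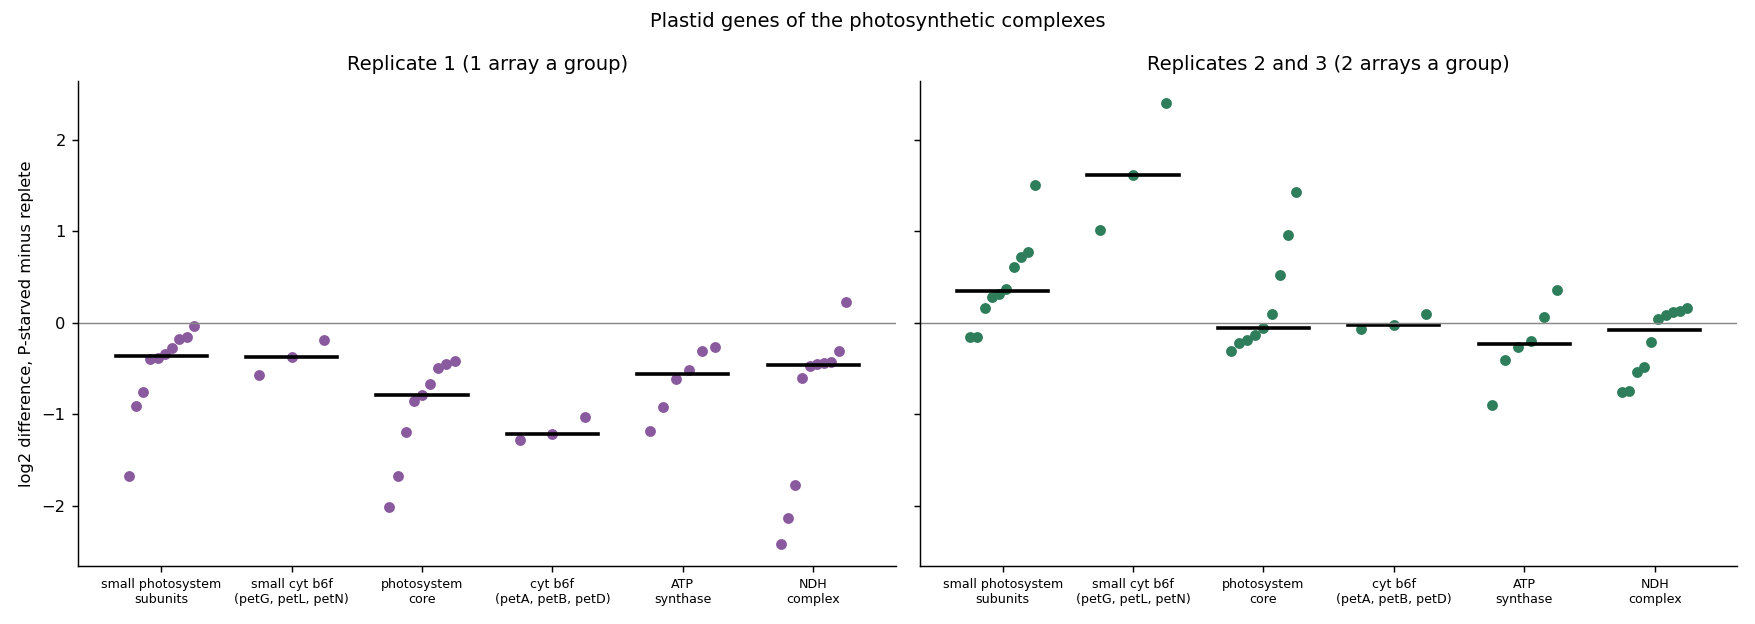
Log2 difference, P-starved minus replete, of each plastid gene of the photosynthetic complexes, on the replicate 1 arrays (left) and the replicate 2 and 3 arrays (right); each point is 1 gene and each bar the median of its group. The small photosystem subunits have medians of -0.37 and 0.35, the short cytochrome b6f genes -0.38 and 1.62, and the photosystem core genes -0.79 and -0.058.

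Few nuclear partners could be read by name. Of 22 nuclear genes of photosystem subunits 4 were measured, 2 higher and 2 lower over all arrays. PSAN, of a photosystem I subunit on the lumen side, had -0.23 ± 0.13, and PSBY, of a low-mass photosystem II subunit that the nucleus encodes, had 0.56 ± 0.34. PSBY was lower on replicate 1, at -0.088, and higher without overlap on replicates 2 and 3, at 0.88 ± 0.47, where its signal was only 59.8 and 74.5 in P-starved against 17.2 and 44.6 in replete shoots. Of 18 nuclear genes for photosystem assembly and plastid RNA 5 were measured, 2 higher and 3 lower, with PAM68 at 0.11 ± 0.16 and AT5G42310 at 0.16 ± 0.27. None of the 6 sigma factor genes, whose products guide the plastid RNA polymerase to promoters, was measured under its name.

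Most of the 10 genes lie in transcription units known from textbooks, and members of 1 unit share first transcripts. In the psbB unit, which holds psbB, psbT, psbH, petB and petD, all 5 genes were lower on replicate 1, from -1.67 for psbH to -0.91 for psbT. On replicates 2 and 3 the same unit ran from -0.31 for psbB to 0.32 for psbT. psbN, which lies between psbT and psbH on the opposite strand, was at -0.21 on replicate 1 and 0.53 ± 0.25 on the others, where its groups did not overlap.

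In the psbE unit, of psbE, psbF, psbL and psbJ, all 4 genes were lower on replicate 1, from -0.75 to -0.27, and higher on replicates 2 and 3, from 0.52 to 1.43. For psbE, at 0.52 ± 0.34, the groups overlapped on replicates 2 and 3. Of the other plastid probe sets 96.6% were lower on replicate 1 and 45.8% were higher on replicates 2 and 3. psbF, for a subunit of cytochrome b559 and the neighbour of psbL, had the 1.43 ± 0.31. On the other side of psbJ, petA was at -1.21 on replicate 1 and -0.071 ± 0.20 on the others. psbK and psbI, which form a unit of their own, were at -0.40 and -0.35 on replicate 1 and at 0.77 and 0.28 on replicates 2 and 3.

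Other units were less uniform. psaI differed from the genes that follow it, since on replicates 2 and 3 psaI was at 0.37 and ycf4, cemA and petA lay between -0.37 and -0.071, and its neighbour on the other side, accD, was at -2.35 on replicate 1. psaJ was at -0.033 on replicate 1 and 0.16 on the others, while rpl33, the next gene, was at 0.74 on replicate 1 and -0.87 ± 0.28 on the others. petG, on the other side of psaJ, was at -0.19 on replicate 1 and 2.40 ± 0.68 on the others. In the psbD unit psbZ, psbC and psbD were between -0.15 and -0.058 on replicates 2 and 3, and at -0.15, -0.46 and -0.79 on replicate 1. psbM lies between petN and psbD. psbM and petN had similar differences in each set, -0.17 and -0.38 on replicate 1 and 1.50 and 1.62 on the others. psbD was not alike, at -0.79 on replicate 1 and -0.14 on the others, where P-starved lay below replete without overlap. The remaining neighbours were atpA beside psbI, at -1.18 on replicate 1 and 0.059 ± 0.20 on replicates 2 and 3, rps16 beside psbK, at -0.71 and 0.58 ± 0.53, and rps14 beside psbZ, at -0.39 and 0.35 ± 0.23. The genes that complete a unit without touching 1 of the 10 genes (psbE, cemA, petD and rps18), and petL above, were named after their values had been seen.

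**Figure D4:**
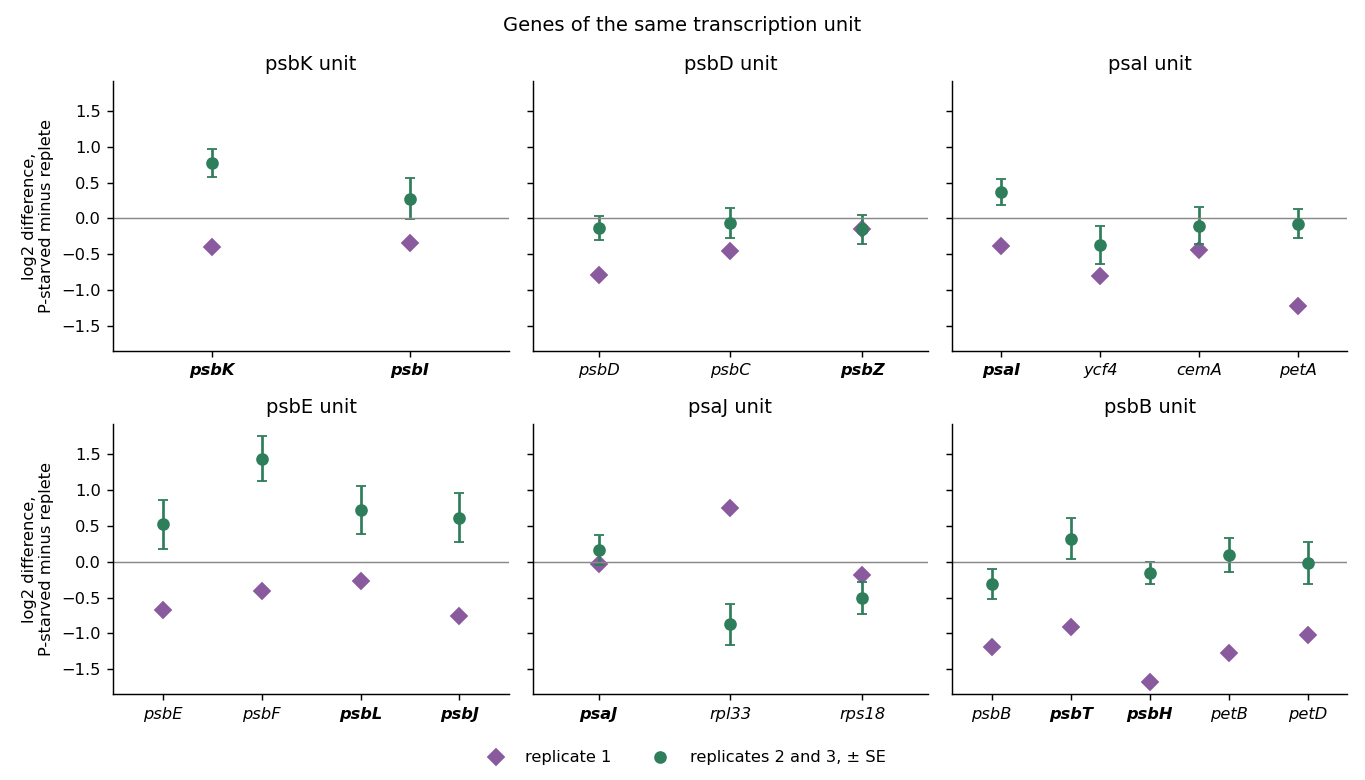
Log2 difference, P-starved minus replete, of the genes of 6 plastid transcription units in their order within the unit, for the replicate 1 arrays (diamonds) and the replicate 2 and 3 arrays (circles with SE); the small photosystem subunit genes are in bold. All genes of the psbE unit are below 0 on replicate 1 and above 0 on the others, where the groups of psbE overlap. The psbB unit lies between -1.67 and -0.91 on replicate 1.

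The genes whose course over the arrays was most like that of the 10 were sought among 5400 other probe sets with 1 gene and a signal in the brighter 50%. Likeness was Pearson's r over the 6 arrays between log2 signals from which the mean of each processing set had been subtracted, and it is a description of few points. The subtraction leaves the replicate 1 values of the groups as mirror images. How high an r the best of 5400 unrelated genes would reach was not tested. The 5 highest were the plastid genes rpl20, of a ribosomal protein (r = 0.997), and atpF, of an ATP synthase subunit (r = 0.993), and the nuclear loci AT5G20700 (r = 0.994), AT1G23590 (r = 0.988) and AT1G71170 (r = 0.983). rpl20 was at -0.96 on replicate 1 and 0.75 on replicates 2 and 3, and atpF was at -0.51 and 0.35.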

How the data were processed

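The authors deposited 1 linear intensity per probe set, made with MAS5 per the submitters' processing notes, which state no version or probe masking. The 2% trimmed mean of each deposited column was 100, so rescaling to it left the values almost as deposited. Names came from the gene table of the array platform, where 13513 of 14016 listed probe sets have 1 gene, 13436 of them matched to TAIR10.1 symbols, which also gave the order of plastid genes. No coordinates or sequences are given.

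After 64 control probe sets and 3168 listed only on the replicate 1 arrays were left out, log2(signal + 16) of 19578 probe sets was fitted with limma 3.58.1 in R 4.3.3 (lmFit, eBayes with a trend, two-sided). No detection calls were used, and the 6 arrays limit the precision. The code of the fit was run on simulated data with independent noise and the same group difference in both sets. That run checks the code and does not bear on the 10 genes. Lists were described by counts and medians. The 10 genes, the lists, the block for the processing set and the named genes (all 10, their plastid neighbours, up to 2 of smallest p per list, and the 5 most alike) were chosen with earlier results of these data known.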

Additional observations from a re-analysis of the deposited data

Results flagged for a closer look

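For 6 of the 10 genes the P-starved array was lower on replicate 1 while both P-starved arrays were above both replete arrays on replicates 2 and 3, which held for 10.7% of all probe sets and 23.7% of the other plastid ones. As all 10 genes were lower on replicate 1, the combination adds nothing to the 6 of 10 that lay above without overlap. Choosing genes in this way also fixes the difference on replicates 2 and 3 minus that on replicate 1 as positive. It was 1.67 for psbM, 1.37 for psbJ, 1.17 for psbK, 0.99 for psbL, 0.76 for psaI and 0.20 for psaJ on the log2 scale. For psbH, which is not among the 6, it was 1.52. In limma's interaction test the adjusted p of these 6 genes lay between 0.415 and 0.898. With quantile normalization psbM and psaJ were higher in P-starved shoots on replicate 1 too, at 0.12 and 0.12, so that for them the directions were no longer opposite.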

How the results depend on the processing

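Limma called 0 probe sets under each alternative run for the group difference (offsets of 4 and 64, 2 other scalings, the brighter 50% of probe sets, no trend, group only, the replicate block, replicates 2 and 3 alone, and leaving out each array), with smallest adjusted p from 0.447 to 1.00. The probe sets with an unadjusted p under 0.05 numbered 530 higher and 627 lower, 61 and 105 with group only, and 462 and 541 with the replicate block, where no gene of the 10 was called and the smallest adjusted p was 0.801. For the difference between sets, run with both offsets, both other scalings and the brighter 50% only, it called 0, with smallest adjusted p from 0.062 to 0.679. Same-numbered arrays gave no sign of pairing beyond the sets: P-starved replicate 2 minus 3 correlated with replete replicate 2 minus 3 across probe sets at r = 0.016.

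The median of the 10 genes over all arrays, 0.11, was -0.37 on replicate 1 alone and -0.079 to 0.35 when 1 array was left out, being below 0 without replete replicate 3. With quantile normalization psbZ was at 0.11, and its difference between sets at 0.071. On replicates 2 and 3 alone psbT was at 0.32, against -0.091 over all arrays. Leaving out 1 array changed the sign of 4 genes. psbT ran from -0.42 to 0.32, at 0.0015 without replete replicate 2 and 0.32 without either replicate 1 array. psbI ran from -0.17 without P-starved replicate 2 to 0.28, at -0.10 without replete replicate 3. psbJ ran from -0.19 without replete replicate 3 to 0.62, at -0.076 without P-starved replicate 3, and psaI from -0.054 without replete replicate 3 to 0.37. psbM stayed between 0.59 and 1.50. The cause of these changes was not tested, and the replicate 1 arrays allow no error for their own difference.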
